A study of Sus scrofa with 12 samples.

Results

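DNA methylation and demethylation enzymes were examined as 8 genes, DNMT1, DNMT3A, DNMT3B, UHRF1, TET1, TET2, TET3 and TDG, picked by gene symbol from 24358 rows of expression values. Each of the 8 symbols had 1 row, and all 8 passed the filter on low values in both comparisons. The study inserted a tdTomato reporter at NANOG in pig induced pluripotent stem cells derived from pericytes (PC-iPS cells) and then tested which signalling pathway acts on NANOG. RNA was sequenced from 4 groups of 3 libraries: WT PC-iPS cells, cells positive for the NANOG tdTomato knock-in, and knock-in cells treated with Activin A or with SB431542, an inhibitor of the Activin and TGF-β receptors. The growth label was LCDMV medium for every group. The study's methods describe the treatments in the same medium without LIF, and both media hold vitamin C, a cofactor that raises TET activity. Dose and duration for the sequenced libraries were not given in the sources used here. The knock-in lines came from separately transfected cultures that passed drug selection. Colonies were then chosen, and cells sorted, by tdTomato fluorescence, so expression at NANOG took part in choosing the knock-in cells. The lines were not single clones, so cells within a line may differ in their insertions. Feeder cells were depleted by letting them attach before RNA was taken. WT libraries carry only a number, and nothing states that they came from separate cultures, so p-values measure the spread between these samples, which may be technical.

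DNA methylation in mammals is written on cytosine, mainly where it precedes guanine. DNMT1 copies the mark after replication and is brought to half-methylated DNA by UHRF1, which reads it, whereas DNMT3A and DNMT3B place the mark on new sites. TET enzymes oxidise methylcytosine, and TDG, a DNA glycosylase, cuts out the most oxidised forms so that base excision repair can restore cytosine. In the mouse, naive cells such as embryonic stem cells grown with kinase inhibitors have a sparsely methylated genome, and primed epiblast cells have a densely methylated one with high Dnmt3a and Dnmt3b. Methylation itself was not measured here, and transcript levels of these enzymes do not give it.

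The values were FPKM, sequenced fragments scaled to transcript length and library size, which allow levels to be compared between genes. Summed FPKM ran from 364241 to 390320 per library. The total depth is unknown, as no read counts entered this work, but the spacing of low values gave relative depths from 0.564 to 0.635 in WT and from 0.73 to 1 in the other groups, with knock-in line 1 set to 1. The 13 mitochondrial genes took 13.9% to 16.4% of the summed FPKM in WT libraries and 9.43% to 11.5% in the other groups. NANOG, the reporter's host gene, stood at 9.71, 16.4 and 27.6 FPKM in WT, at 52.0, 101.1 and 70.4 in the knock-in lines, at 109, 195 and 157 with Activin A, and at 11.8, 27.2 and 11.8 with SB431542. Pig NANOG has near-identical copies on different chromosomes, so its level depends on how the counting shared reads between them.

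All 8 enzymes were expressed in every library, at levels that fell into separate tiers. Over 12 libraries the maintenance pair was highest, with a mean of 79.4 FPKM for UHRF1 and 65.9 FPKM for DNMT1. TDG, DNMT3B and DNMT3A followed at 23.2, 21.4 and 18.5 FPKM. The TET genes were lowest, at 6.33 FPKM for TET3, 5.97 FPKM for TET1 and 4.34 FPKM for TET2. The order within tiers depended on the group. In WT alone, DNMT1 averaged 56.4 and UHRF1 55.5 FPKM, DNMT3B 27.3 and TDG 18.3 FPKM, and TET1 7.43 and TET3 5.65 FPKM. UHRF1 varied most, by 2.77-fold between its lowest and highest library, followed by TET1 at 2.13-fold and DNMT3B at 1.99-fold. The other 5 varied by 1.55-fold to 1.86-fold.

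**Figure D1:**
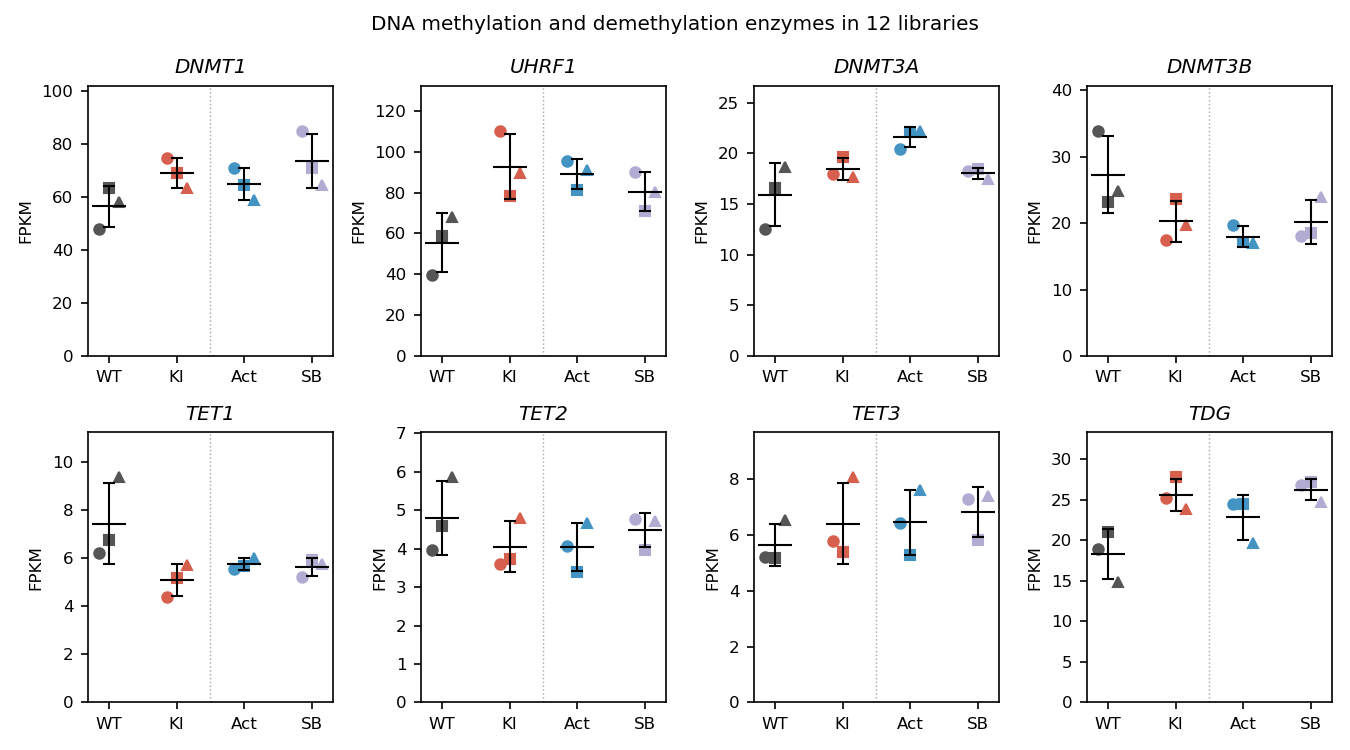
FPKM of each enzyme (y axis, linear, from 0) in the 12 libraries, grouped on the x axis as WT, knock-in (KI), Activin A (Act) and SB431542 (SB); circles, squares and triangles are replicates 1, 2 and 3, the long bar is the mean and the whiskers are 1 SD (n = 3). The dotted line separates the 2 tables, which were tested separately. UHRF1, DNMT1 and TDG of all 3 knock-in lines sit above all 3 WT libraries, and TET1 sits below them.

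The first comparison asked which genes differ between knock-in and WT cells. None of the 8 enzymes passed limma's test after Benjamini-Hochberg adjustment over all 14014 genes tested, of which 7.22% passed at an adjusted p of at most 0.05 (4.88% higher and 2.34% lower in the knock-in lines) and 2.31% also had a log2 fold change of at least 1 in size. At an unadjusted p under 0.05, 4 of 8 enzymes were counted (50%), beside 28.6% of all genes. The groups did not overlap for 4 of 8 enzymes, with UHRF1, DNMT1 and TDG above WT and TET1 below it (50%), beside 35.7% of all genes, 19% above and 16.7% below. The median log2 fold change of the 8 was 0.18, beside -0.0014 for all genes. In bulk RNA, a change in the share of cells that express a gene and a change in RNA per cell cannot be told apart.

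UHRF1 had the largest difference of the 8. The gene lies at chr2:73898061-73937727 in Sscrofa11.1. Its level was 39.7, 58.8 and 67.9 FPKM in WT libraries 1 to 3, and 110.1, 78.5 and 89.5 FPKM in knock-in lines 1 to 3. The lowest knock-in line lay above the highest WT library, and the means were 55.5 ± 14.4 and 92.7 ± 16.1 FPKM (SD, n = 3). The ratio of means was 1.67, and the log2 fold change, on the log2(FPKM + 1) scale used throughout, was 0.75 ± 0.21 (SE, 95% confidence interval 0.26 to 1.24) with limma's adjusted p = 0.072. Over 17 other settings the log2 fold change stayed between 0.53 and 0.91, with adjusted p from 0.019 to 0.205 in limma. Without WT replicate 3, it passed limma's test, at 0.91 with adjusted p = 0.046.

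DNMT1, the maintenance methyltransferase that UHRF1 recruits, differed less. It lies at chr2:68981564-69040364. WT libraries had 48.0, 63.2 and 58.0 FPKM and knock-in lines had 74.6, 69.1 and 63.3 FPKM. The groups did not overlap, but knock-in line 3 and WT library 2 were almost level. The log2 fold change was 0.29 ± 0.13 (SE) with an interval from -0.0015 to 0.59 and limma's adjusted p = 0.176, and it was 0.16 with quantile normalization and 0.18 without WT replicate 1. UHRF1 per DNMT1 was 0.83 to 1.17 in WT and 1.14 to 1.48 in the knock-in lines, ranges that overlapped slightly.

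UHRF1 and DNMT1 are both known to peak around S phase of the cell cycle, and 17 genes of DNA replication and proliferation were read beside them. Of these, 4 rose in the knock-in lines by limma's test and 0 fell, beside 4.88% and 2.34% of all genes, with a median log2 fold change of 0.22. CDT1, a replication licensing factor, went from 16.8 ± 1.8 to 28.2 ± 3.5 FPKM (SD, n = 3; log2 fold change 0.71, limma's adjusted p = 0.027). MCM7, a subunit of the replicative helicase, went from 119 ± 23 to 212 ± 20 FPKM (0.84, limma's adjusted p = 0.027). Each of these genes passed the test in 11 of 17 other settings, and neither passed it with any 1 knock-in line or WT replicate 2 left out. The other 2, MCM2 and MCM4, were named after their values were seen and had log2 fold changes of 0.48 and 0.49. PCNA, the sliding clamp, had 0.10 with limma's adjusted p = 0.693. Of the 17 genes, 12 had a log2 fold change above 0, beside 6980 of 14014 genes. Among the rest were CCNE2 (-0.37), TOP2A (-0.24) and MCM6 (-0.06), named after their values were seen, none past the test. The summed level of the 17 genes was 992 to 1221 FPKM in WT and 1185 to 1397 FPKM in the knock-in lines, ranges that overlapped. Its part in the UHRF1 and DNMT1 differences was not tested.

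The de novo enzymes had log2 fold changes of opposite sign, neither past the test, and both depended on WT replicate 1. DNMT3A, at chr3:113501972-113609148, had 12.5, 16.6 and 18.6 FPKM in WT and 17.9, 19.7 and 17.7 FPKM in the knock-in lines. The groups overlapped, and WT replicate 1 was the lowest of the 12 libraries. Its log2 fold change was 0.21 ± 0.15 (SE) with limma's adjusted p = 0.392, and without WT replicate 1 it was 0.061.

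DNMT3B, at chr17:36345715-36386076, had 33.9, 23.2 and 24.8 FPKM in WT and 17.4, 23.6 and 19.7 FPKM in the knock-in lines. Knock-in line 2 stood just above the lowest WT library, and WT replicate 1 was the highest of the 12. The log2 fold change was -0.40 ± 0.17 (SE) with an interval from -0.81 to -0.00028 and limma's adjusted p = 0.174, and without WT replicate 1 it was -0.24. WT replicate 1 therefore held the highest DNMT3B and the lowest DNMT3A, DNMT1 and UHRF1 of the series. DNMT3B per DNMT3A was 2.70 in that library and 1.40 and 1.33 in the other WT libraries, against 0.97 to 1.2 in the knock-in lines, so the groups did not overlap with or without it. The share of gene ratios that separate in this way was not counted.

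DNMT3L, a catalytically inactive partner that stimulates both de novo enzymes and is abundant in human naive cells, was near 0, with a highest value of 0.0095 FPKM in the 12 libraries.

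Among the TET genes, TET1 was lower in all 3 knock-in lines. TET1, which acts with the pluripotency factors in mouse embryonic stem cells, lies at chr14:71675671-71812732. Its level was 6.19, 6.75 and 9.34 FPKM in WT and 4.38, 5.17 and 5.70 FPKM in the knock-in lines. Every knock-in line lay below every WT library, and the ratio of means was 0.684. The log2 fold change was -0.46 ± 0.18 (SE, 95% confidence interval -0.88 to -0.04) with limma's adjusted p = 0.15, and it was -0.30 without WT replicate 3.

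TET2, which lacks the CXXC DNA-binding domain, lies at chr8:116413253-116546976. It had 3.96, 4.58 and 5.85 FPKM in WT and 3.61, 3.73 and 4.81 FPKM in the knock-in lines. The groups overlapped, with a log2 fold change of -0.19 ± 0.18 (SE) and limma's adjusted p = 0.502, and it was -0.067 without WT replicate 3 and -0.30 without WT replicate 1 or knock-in line 3. TET3, the form known from the oocyte and zygote, lies at chr3:68918896-69020406. Its level was 5.22, 5.19 and 6.53 FPKM in WT and 5.77, 5.38 and 8.06 FPKM in the knock-in lines, with a log2 fold change of 0.14 ± 0.18 (SE) and limma's adjusted p = 0.631. Knock-in line 3 set the direction of TET3, since without it the log2 fold change was -0.0098.

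TDG, the glycosylase that completes active demethylation and also removes thymine from G/T mispairs, was higher in all 3 knock-in lines. It lies at chr5:80473233-80492295. WT libraries had 18.9, 21.0 and 14.9 FPKM and knock-in lines had 25.2, 27.7 and 23.9 FPKM. The ranges were apart, and the means were 18.3 ± 3.1 and 25.6 ± 2.0 FPKM (SD, n = 3), a ratio of 1.40. The log2 fold change was 0.48 ± 0.14 (SE, 95% confidence interval 0.14 to 0.81) with limma's adjusted p = 0.085.

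The choice of fit decided how many of these differences passed. With all 12 libraries in 1 limma fit, UHRF1 (adjusted p = 0.019), TDG (adjusted p = 0.027) and TET1 (adjusted p = 0.047) passed, 3 of 8 enzymes beside 18.6% of all genes, and 5 of 8 had an unadjusted p under 0.05 beside 34.8%. Wherever it is given here, this fit treats the 9 libraries from knock-in cells as independent. It leaves out the pairing of Activin A and SB431542 libraries by replicate number, so its p-values may be too small. In two-sided exact permutation tests of single genes, with 3 libraries on each side, UHRF1, TDG, DNMT1 and TET1 each had p = 0.1, the smallest value this design allows.

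**Figure D2:**
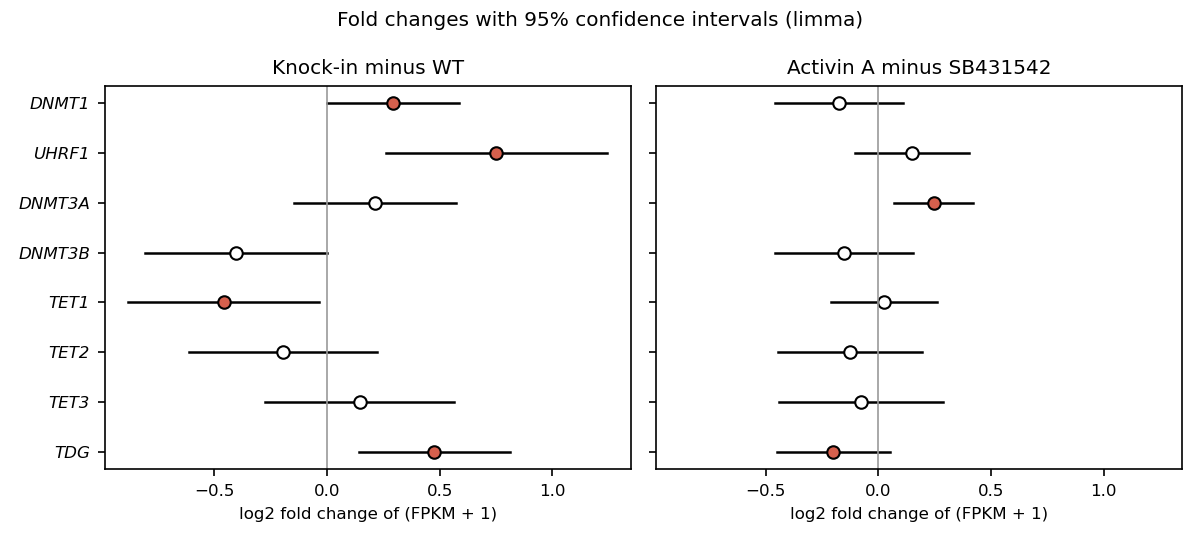
Log2 fold change of FPKM + 1 (x axis) for the 8 enzymes, as points with 95% confidence intervals from limma, for knock-in minus WT (left) and Activin A minus SB431542 (right); filled points mark genes whose 2 groups of 3 libraries did not overlap. The left intervals reach 1.24 and the right ones stay within 0.46 of 0 on either side.

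The second comparison asked what changes when Activin signalling is on or blocked, with NANOG as the gene the treatments were chosen for. NANOG rose to 154 ± 43 FPKM with Activin A from 16.9 ± 8.9 FPKM with SB431542 (SD, n = 3; log2 fold change 3.18, limma's adjusted p = 0.042). NANOG passed in 8 of 17 other settings and did not with any 1 library other than SB431542 replicate 2 left out, with limma's adjusted p between 0.0066 and 0.208 and the same direction in each. None of the 8 enzymes passed limma's test, beside 0.136% of 13999 genes tested, 0.0929% higher and 0.0429% lower with Activin A, and 0.0929% with a log2 fold change of at least 1 in size. At an unadjusted p under 0.05, 1 of 8 was counted (12.5%), beside 12.8% of all genes. The groups did not overlap for 2 of 8 enzymes (25%), 1 above and 1 below, beside 20% of all genes, 9.19% above and 10.8% below. The median log2 fold change of the 8 was -0.10, beside -0.0040 for all genes. With all 12 libraries in 1 limma fit, 0 of 8 passed beside 0.357% of all genes, and 0 of 8 had an unadjusted p under 0.05 beside 10.9%.

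DNMT3A had the largest of these differences. It had 20.4, 22.1 and 22.2 FPKM in Activin A libraries 1 to 3 and 18.2, 18.5 and 17.4 FPKM in SB431542 libraries 1 to 3. All Activin A libraries lay above all SB431542 libraries. The means were 21.6 ± 0.99 and 18.0 ± 0.55 FPKM (SD, n = 3), and the log2 fold change was 0.25 ± 0.07 (SE, 95% confidence interval 0.07 to 0.42) with limma's adjusted p = 0.265.

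TDG lay the other way, at 24.4, 24.4 and 19.6 FPKM with Activin A and 26.8, 27.1 and 24.7 FPKM with SB431542. The groups did not overlap, and the log2 fold change was -0.20 ± 0.10 (SE) with limma's adjusted p = 0.476 (-0.097 without Activin A replicate 3). DNMT1 had 70.9, 64.5 and 58.8 FPKM with Activin A and 84.8, 71.0 and 64.6 FPKM with SB431542. These groups overlapped, although DNMT1 was lower with Activin A in 3 of 3 pairs of the same replicate number. The share of all genes with the same sign in 3 of 3 pairs was not counted, here or below, so pair counts are a description. The log2 fold change of DNMT1 was -0.18 (limma's adjusted p = 0.576), or -0.069 without SB431542 replicate 1.

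UHRF1 lay the other way from DNMT1, with 95.2, 81.1 and 91.0 FPKM for Activin A and 89.9, 71.1 and 80.4 FPKM for SB431542. It was higher with Activin A in 3 of 3 pairs, with a log2 fold change of 0.15 and limma's adjusted p = 0.595, from 0.064 without SB431542 replicate 2 to 0.23 without SB431542 replicate 1. UHRF1 per DNMT1 was 1.26 to 1.55 with Activin A and 1.00 to 1.24 with SB431542, ranges that came close but did not overlap. Neither gene passed limma's test. The share of gene ratios that separate in this way was not counted, so the ratio is a description.

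DNMT3B had 19.7, 17.1 and 17.0 FPKM with Activin A and 18.0, 18.5 and 24.0 FPKM with SB431542, a log2 fold change of -0.15 with limma's adjusted p = 0.655. Its groups overlapped, and SB431542 library 3 was the highest of the 6, without which the log2 fold change was -0.026. Of the TET genes, TET1 had 5.56, 5.65 and 6.01 FPKM with Activin A and 5.22, 5.91 and 5.76 FPKM with SB431542, a log2 fold change of 0.02 (limma's adjusted p = 0.943). Its groups overlapped, and its interval ran from -0.21 to 0.26.

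TET2 had 4.06, 3.40 and 4.66 FPKM with Activin A and 4.76, 3.98 and 4.72 FPKM with SB431542. TET3 had 6.45, 5.29 and 7.62 FPKM with Activin A and 7.28, 5.81 and 7.40 FPKM with SB431542. Both overlapped between the treatments, with log2 fold changes of -0.13 and -0.08 and limma's adjusted p = 0.728 and 0.868. TET2 was lower with Activin A in 3 of 3 pairs of the same replicate number and TET3 in 2 of 3. The value of TET2 ran from -0.21 without Activin A replicate 3 to -0.032 without Activin A replicate 2. In the limma fit of these 6 libraries without the block, no bound of a 95% interval of the 8 enzymes lay farther from 0 than 0.46 on the log2 scale. With the block the farthest was -0.47, for DNMT3B, and with all 12 libraries in 1 fit it was 0.55, for UHRF1, so a 2-fold difference of any of the 8 lay outside its interval in each of these fits.

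The replicate numbers paired these libraries, and the limma fit with the replicate number as a block passed 2.88% of all genes. It still passed 0 of 8 enzymes, with 4 of 8 at an unadjusted p under 0.05 beside 23.7% of all genes. The smallest blocked adjusted p was 0.122, for DNMT3A, followed by 0.138 for DNMT1, 0.163 for UHRF1 and 0.171 for TDG.

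The make-up of each family was also read as shares within libraries, which removes any scaling between them, whereas the summed levels keep it. Both are given without a test. How often shares in other sets of genes separate between groups was not counted, so the shares are a description. Summed DNMT transcripts were 94.4 to 103 FPKM in WT, 101 to 112 in the knock-in lines, 98.0 to 111 with Activin A and 106 to 121 with SB431542. DNMT1 made up 50.8% to 61.3% of that sum in WT and 61.5% to 67.9% in the knock-in lines, and 60.0% to 63.8% with Activin A and 60.9% to 70.0% with SB431542, both of which overlapped the WT range. DNMT3B made up 22.5% to 35.9% in WT and 15.8% to 21.0% in the knock-in lines, 16.5% to 17.8% with Activin A and 14.9% to 22.6% with SB431542. DNMT3A made up 18.4% to 22.7% with Activin A and 15.1% to 17.1% with SB431542, so its share, like its level, did not overlap between the treatments.

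Within the TET family, TET1 was the most abundant in every WT library and TET3 in every knock-in line. TET1 made up 40.3% to 43.0% of the summed TET level in WT and 30.7% to 36.2% in the knock-in lines. TET3 made up 30.1% to 34.0% in WT and 37.7% to 43.4% in the knock-in lines. With Activin A the TET1 share was 32.9% to 39.4%, and with SB431542 it was 30.2% to 37.7%, both below the WT range. TET2 was steady at 23.7% to 27.7% over the 12 libraries. The summed TET level was 15.4 to 21.7 FPKM in WT and 13.8 to 18.6 FPKM in the knock-in lines, and these ranges overlapped.

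**Figure D3:**
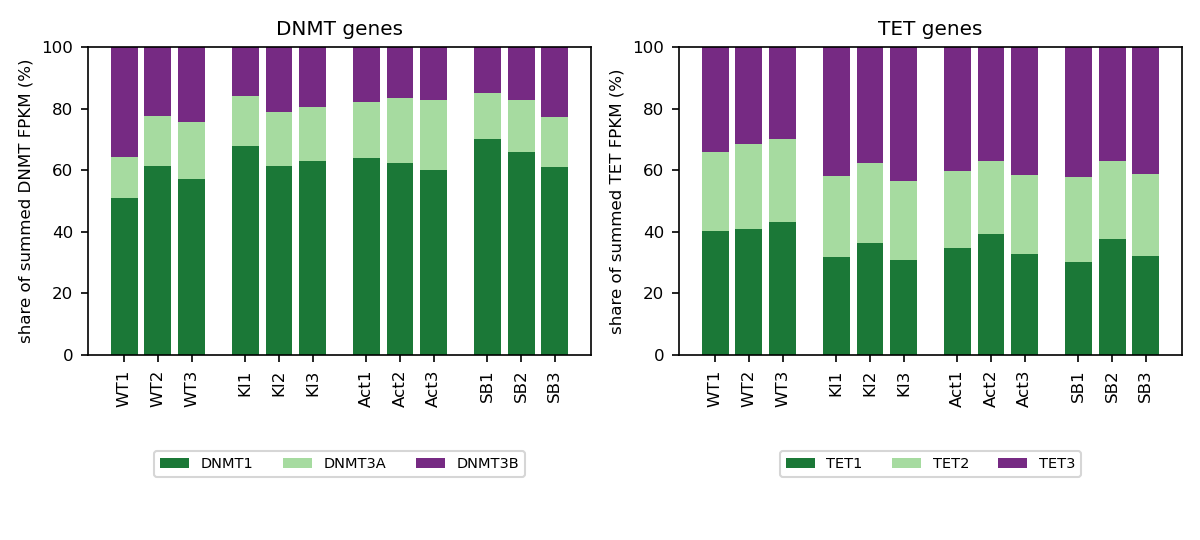
Share of the summed FPKM (y axis, percent, stacked to 100) of DNMT1, DNMT3A and DNMT3B (left) and of TET1, TET2 and TET3 (right) in each of the 12 libraries on the x axis. The TET1 share is 40.3% to 43.0% in the 3 WT libraries and lower in the 9 others, which all derive from knock-in cells.

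Across the 4 groups, the order of the means was mostly not resolved. For DNMT1, DNMT3B, TET2, TET3 and TDG, every pair of neighbours in the order overlapped. DNMT3A was highest with Activin A, where all libraries lay above the next group, the knock-in lines. UHRF1 was lowest in WT, below all libraries of the next group, SB431542. TET1 was highest in WT, above all libraries of the next group, Activin A. All 9 libraries from knock-in cells thus lay above WT in UHRF1 and below WT in TET1, but WT shares its table only with the untreated knock-in lines. The share of all genes with such separations across 4 groups was not counted. Between knock-in and WT alone, 35.7% of all genes did not overlap, so these patterns are a description.

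Partners of these enzymes were read next between knock-in and WT. Of 9 tested genes that act with maintenance or de novo methylation, 0 passed limma's test, and the median log2 fold change was 0.10. TRIM28, the corepressor that holds methylation at imprinted regions and retroelements, came closest, at 91.6 ± 11.4 FPKM in WT and 121 ± 3.4 FPKM in the knock-in lines (SD, n = 3; 0.41, limma's adjusted p = 0.063). Its groups did not overlap, and it passed with all 12 libraries in 1 limma fit (adjusted p = 0.0099). EHMT2, a histone H3 lysine 9 methyltransferase, had 0.32 with limma's adjusted p = 0.178. Of 8 genes from families of proteins that read methylated DNA, called readers here for short, 0 passed, with a median of -0.03. MBD3, a subunit of the NuRD complex, had 0.32 (limma's adjusted p = 0.089), and ZBTB38, a zinc finger reader, had 0.28 (limma's adjusted p = 0.225).

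Of 16 genes that act with TET and TDG or in base excision repair, 1 rose and 1 fell, beside 4.88% and 2.34% of all genes, with a median of -0.02. CXXC5, a CXXC zinc finger protein that binds unmethylated DNA and interacts with TET2, rose from 16.1 ± 5.0 to 32.2 ± 4.8 FPKM (SD, n = 3; 0.98, limma's adjusted p = 0.040). OGT, the O-GlcNAc transferase that binds TET proteins, fell from 35.2 ± 7.3 to 20.9 ± 1.8 FPKM (SD, n = 3; -0.71, limma's adjusted p = 0.039). Both sat close to the threshold, and CXXC5 did not pass in 8 of 17 other settings and OGT in 7 of 17, among them the removal of any 1 library other than WT replicate 3. GADD45A, a stress-induced adaptor linked to demethylation and named after its values were seen, was 2.52, 1.92 and 4.28 FPKM in WT and 6.40, 27.1 and 7.59 FPKM in the knock-in lines (limma's adjusted p = 0.081), so that line 2 carried most of its mean.

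Of 15 genes that supply the methyl donor or 2-oxoglutarate, the TET cosubstrate, 0 passed, with a median of 0.07. PHGDH, the first enzyme of serine synthesis, had 0.59 (limma's adjusted p = 0.085), and AHCYL1, a relative of the enzyme that clears S-adenosylhomocysteine, had -0.32 (limma's adjusted p = 0.157). At an unadjusted p under 0.05, limma counted 1 of the 9 methylation partners, 1 of the 8 readers, 5 of the 16 demethylation partners and 4 of the 15 donor genes, beside 28.6% of all genes. With all 12 libraries in 1 limma fit, 1, 1, 3 and 0 of them passed, beside 18.6% of all genes.

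Between Activin A and SB431542, 0 genes of these 4 lists passed limma's test without the block, beside 0.136% of all genes, and 0, 1, 3 and 2 of them had an unadjusted p under 0.05, beside 12.8% of all genes. With all 12 libraries in 1 limma fit, 0 of them passed. The median log2 fold changes were 0.02 for the methylation partners, -0.02 for the readers, -0.03 for the demethylation partners and -0.11 for the donor genes. TRIM28 had 0.14 and SETDB1, its histone methyltransferase partner, had 0.20, with limma's adjusted p = 0.437 and 0.472. ZBTB38 had -0.29 and ZBTB4, a related reader, had 0.31, with limma's adjusted p = 0.281 and 0.493. CXXC5 had 0.33 with limma's adjusted p = 0.175, and PHGDH had -0.62 with limma's adjusted p = 0.253. With the block, 1 demethylation partner and 1 donor gene passed, beside 2.88% of all genes. GADD45B, a relative of GADD45A, rose from 1.37 ± 0.90 FPKM with SB431542 to 4.23 ± 1.4 FPKM with Activin A (SD, n = 3; 1.17, limma's adjusted p = 0.036 with the block and 0.215 without). PSAT1, the next enzyme of serine synthesis after PHGDH, fell from 119 ± 38 to 62.5 ± 10.6 FPKM (SD, n = 3; -0.87, limma's adjusted p = 0.034 with the block and 0.262 without).

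**Figure D4:**
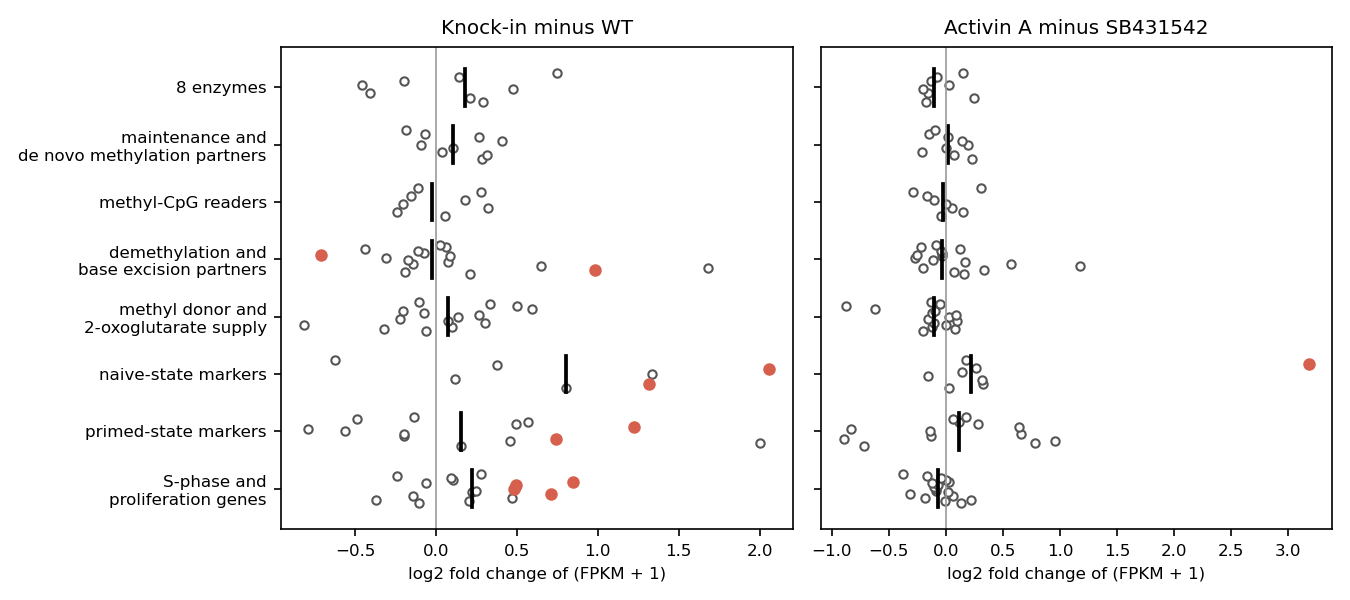
Log2 fold change of FPKM + 1 (x axis) of each tested gene in the 8 enzymes and 7 related lists (rows) for knock-in minus WT (left) and Activin A minus SB431542 (right); each circle is a gene, filled where it passed limma's test without the block, and the bar is the median of the list. None of the 8 enzymes is filled in either panel, and NANOG is the only filled circle in the right panel.

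Germline genes that promoter methylation is known to keep silent were mostly at or near 0. Of 15 such genes with a row, 4 were listed at 0 in all 12 libraries, 5 stayed under 0.15 FPKM, and 1 averaged above 1 FPKM. The last was SOHLH2, a germ cell transcription factor named after its values were seen. PIWIL2, named likewise, had 1.04 FPKM in WT replicate 1 and at most 0.138 FPKM in the other libraries. Of 5 tested between knock-in and WT, 0 passed limma's test, 0 had an unadjusted p under 0.05, and 0 passed with all 12 libraries in 1 fit. DDX4, the germ cell RNA helicase, is counted among these 5 but met the filter only through WT, so its levels are a description. It averaged 0.156 FPKM in WT and 0.0741 FPKM in the knock-in lines, where the highest value was 0.0896 FPKM. TEX14, a germ cell bridge protein, averaged 0.133 and 0.0787 FPKM. Of 3 tested between the treatments, 0 passed in limma and 0 had an unadjusted p under 0.05, with or without the block. STK31 and MAEL, germ cell proteins, had log2 fold changes of 0.03 and 0.02, and each changed sign when 1 library was left out.

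The pluripotent state was read from marker genes beside the enzymes. Of 16 naive-state markers with a row, KLF17, DPPA2 and ZFP42 were listed at 0 in all 12 libraries, and 5 more stayed under 0.15 FPKM, among them TFCP2L1 (highest value 0.057 FPKM) and PRDM14 (0.095 FPKM), which represses Dnmt3b in mouse cells. KLF4 was abundant in every group, with means from 72.5 to 80.5 FPKM. Between knock-in and WT, 2 of 7 tested naive-state markers passed, both higher in the knock-in lines, beside 4.88% of all genes higher and 2.34% lower. One was NANOG (2.06, limma's adjusted p = 0.025), the gene by whose reporter the knock-in cells were obtained. With knock-in line 1, 2 or 3 or WT replicate 1 or 2 left out, limma's adjusted p of NANOG was 0.054 to 0.079. The other was KLF2, which had 0, 0.054 and 0.046 FPKM in WT and 0.81, 2.23 and 1.94 FPKM in the knock-in lines. KLF2 met the filter only through the knock-in lines, and its log2 fold change was 1.32 with a pseudocount of 1 and 5.53 with one of 0.01. It did not pass without WT replicate 1 or 2, and it was not tested with a knock-in line left out, so its levels are a description. STAT3, the transducer of LIF signals, was named after its values were seen and lay below WT without overlap, at 8.92 ± 1.5 FPKM in WT and 5.46 ± 1.1 FPKM in the knock-in lines (SD, n = 3; -0.62, limma's adjusted p = 0.080), and it passed with all 12 libraries in 1 limma fit (adjusted p = 0.046). DPPA3, the protein that keeps UHRF1 off chromatin in the mouse, and POU5F1 were not analysed here.

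OTX2, a transcription factor of primed cells, was high in all groups, with means of 79.0 ± 13.1 FPKM in WT, 68.8 ± 11.8 in the knock-in lines, 58.2 ± 6.2 with Activin A and 63.7 ± 6.1 with SB431542 (SD, n = 3). FGF5, by contrast, reached at most 0.110 FPKM in any library. Of 13 tested primed-state markers, 2 rose in the knock-in lines and 0 fell, beside 4.88% and 2.34% of all genes, with a median of 0.15. SOX11, a neural and epiblast factor, rose from 27.3 ± 6.4 to 64.2 ± 2.2 FPKM (SD, n = 3; 1.23, limma's adjusted p = 0.010), and the other was ETV5, an FGF target named after its values were seen (0.74, limma's adjusted p = 0.035).

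Between the treatments, NANOG was the 1 of 8 naive-state markers that passed limma's test without the block, beside 0.136% of all genes. Of 13 primed-state markers 0 passed it, with 6 at an unadjusted p under 0.05 beside 12.8% of all genes, and a median log2 fold change of 0.11. The groups did not overlap for 6 of the 13, 3 above and 3 below, beside 20% of all genes, 9.19% above and 10.8% below. Those above with Activin A, of which DUSP6 and ETV4 were named after their values were seen, had log2 fold changes of 0.78 for DUSP6, 0.64 for SOX11 and 0.96 for ETV4, with limma's adjusted p = 0.151, 0.159 and 0.319. The 3 below passed with the block, which passed 2.88% of all genes, namely CDH2 (-0.71, limma's adjusted p = 0.027), SFRP2 (-0.83, limma's adjusted p = 0.034) and ETV5 (-0.89, limma's adjusted p = 0.025). Of the 17 replication and proliferation genes 0 passed limma's test without the block, 1 had an unadjusted p under 0.05, and CDT1 had a log2 fold change of -0.32. With the block 1 was lower with Activin A, TYMS, which makes thymidylate (-0.37, limma's adjusted p = 0.034).

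**Figure D5:**
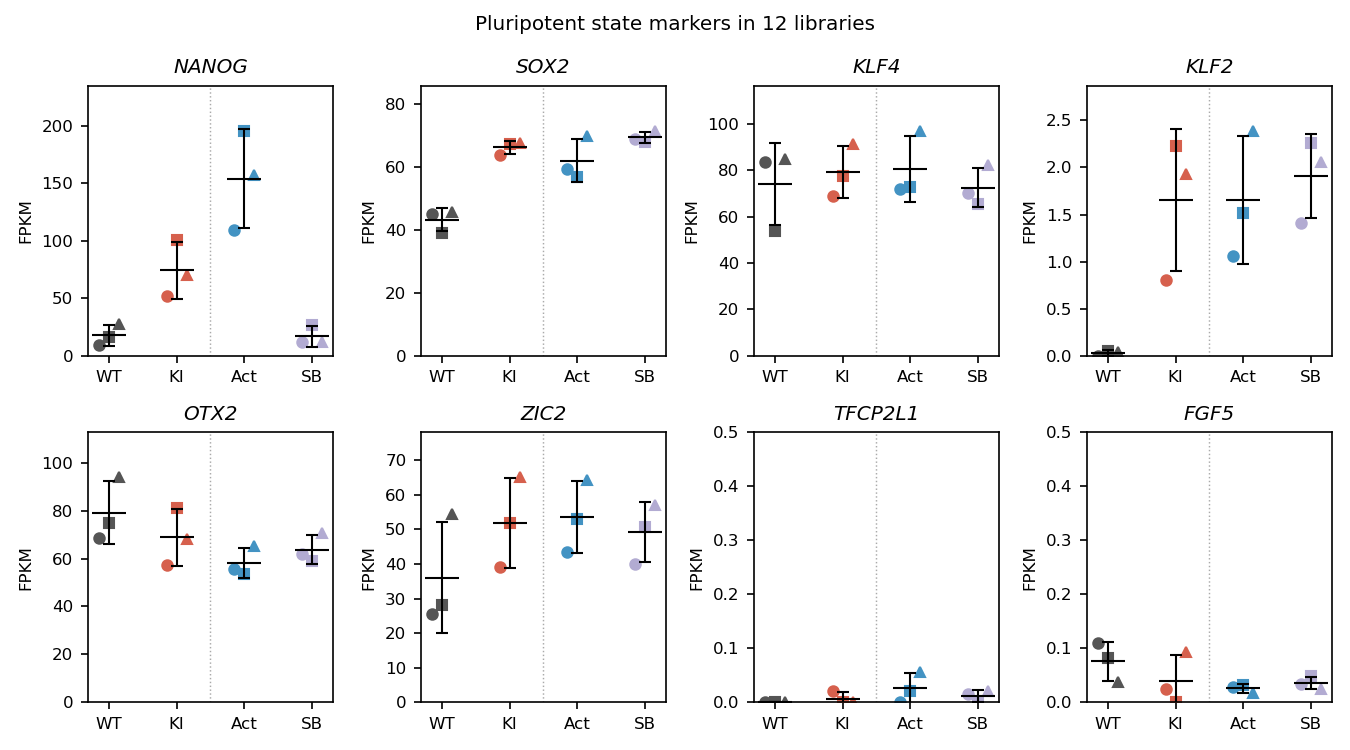
FPKM (y axis, linear, from 0) of 8 markers of the pluripotent state in the 12 libraries, grouped on the x axis as WT, knock-in (KI), Activin A (Act) and SB431542 (SB); circles, squares and triangles are replicates 1, 2 and 3, the long bar is the mean and whiskers are 1 SD (n = 3). NANOG follows the treatment, OTX2 and KLF4 are high everywhere, and TFCP2L1 and FGF5 stay near 0.

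The labelled cell type was checked on its defining markers. SOX2 averaged 43.4 ± 3.7 FPKM in WT and 66.3 ± 2.1 FPKM in the knock-in lines (SD, n = 3; 0.60, limma's adjusted p = 0.020), and LIN28A rose as well (2.08, limma's adjusted p = 0.018), whereas EPCAM was low, at 0.38 and 0.33 FPKM. Markers of other cell types also differed between knock-in and WT. The summed level of 9 fibroblast and feeder markers was 228 to 292 FPKM in WT and 433 to 512 FPKM in the knock-in lines. Of 7 tested, 2 rose and 0 fell in the knock-in lines (VIM 0.81, DCN 1.49), beside 4.88% and 2.34% of all genes. VIM, which many cell types express, averaged 247 and 432 FPKM and made up most of these sums. COL1A1 lay the other way, at 1.13 FPKM in WT and 0.62 FPKM in the knock-in lines without overlap (-0.39, limma's adjusted p = 0.162), and PDGFRA averaged 0.237 and 0.101 FPKM. For 7 pericyte markers the sums were 28.3 to 30.3 and 48.5 to 50.1 FPKM, with 2 of 6 tested higher (ACTA2 2.61, PDGFRB 1.64), beside 4.88% of all genes. NOTCH3 had 0.14 and MCAM -0.02. DES, too low to be tested, lay the other way, with means of 0.425 FPKM in WT and 0.032 FPKM in the knock-in lines. For 7 trophectoderm markers the sums were 12.9 to 19.5 and 77.5 to 513 FPKM, with 2 of 6 tested higher (TFAP2A 1.56, KRT8 4.13), beside 4.88% of all genes. CDX2, the defining factor, was listed at 0 everywhere. Of the primitive endoderm markers GATA6 was the 1 tested, and it rose (1.00, limma's adjusted p = 0.029), while GATA4, SOX17 and FOXA2 stayed under 0.15 FPKM. ACTA2 and PDGFRB passed in 17 of 17 other settings, LIN28A and TFAP2A in 15, and DCN, KRT8 and GATA6 in 12. The part of these differences in those of the enzymes was not tested.

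Between the treatments, ACTA2 was the 1 gene of these cell type lists other than NANOG to pass without the block, lower with Activin A at 8.32 ± 0.89 FPKM against 19.4 ± 1.1 FPKM (SD, n = 3; -1.13, limma's adjusted p = 0.035), and it passed in 11 of 17 other settings but not with any 1 library left out. With the block, COL1A2, COL3A1, GATA2, TFAP2C and GATA6 were higher with Activin A, and VIM, KRT8 and LIN28A were lower. Of all genes, 0.136% passed without the block and 2.88% with it.

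For each enzyme, the 3 genes whose log2(FPKM + 1) followed it most closely over the 12 libraries were listed from 10488 genes, as a description. The libraries share 4 groups and differ in depth, which any pair of genes can follow together. UHRF1 was most like PRPF19 (Pearson r 0.974), PEPD (0.962) and BMP1 (0.960). DNMT1 was most like CHAF1B, a subunit of the chromatin assembly factor that acts at replication forks (0.959), and then ITGA9 and TWNK (both 0.942). The nearest genes of DNMT3A included H1F0 (0.929) and GLIS2 (0.926), and DNMT3B was most like WDR26 (0.909) and a pair of small RNA families, RF00554 (0.935) and RF00273 (0.904).

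TET1 was most like SHPRH, DPY19L4 and HEATR5B (0.912 to 0.909). TET2 was most like HERC1 (0.977), NF1 (0.937) and RNF169 (0.925), and TET3 like DLG5 (0.935), HEXD (0.931) and KAT6A (0.922). TDG was most like SLC25A13 (0.960), VRK2 (0.951) and ECHDC2 (0.937). No enzyme of the 8 was among the 3 nearest genes of another, but lists of 3 from 10488 genes are too short to show whether the enzymes vary together.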

How the data were processed

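RNA-seq of 12 pig libraries in 4 groups was analysed from deposited FPKM values. Per the study's methods and the submitters' processing notes, the authors called bases with bcl2fastq 2.17.1.14, used Trim Galore for trimming and HISAT2 2.0.4 for alignment to Ssc11.1, and ran StringTie 1.3.3 with an Ensembl annotation. They tested featureCounts 1.6.4 counts with DESeq2, and the columns of those comparisons were not used. FPKM is scaled to library size and gene length, so a change in a few abundant genes moves all others, and no further scaling was applied.

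Each table was tested on its own with limma 3.58.1 in R 4.3.3, two-sided, on log2(FPKM + 1) with a variance trend, without a block. A minimum of 0.1 FPKM in any 3 of the 6 libraries was required. P-values were adjusted over all genes tested by Benjamini-Hochberg, and a gene passed at 0.05 or below. A second count also required a log2 fold change of 1 or more in size. Exact permutation tests and shares used SciPy 1.17.1 and Python 3.11.15, and figures used matplotlib 3.10.9.

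The enzymes and gene lists were chosen with earlier results of these data known. Named list genes are those that met both thresholds in a comparison or, where a list had none, the 2 with the smallest adjusted p, together with the markers DPPA3, DNMT3L, KLF17, TFCP2L1, OTX2, FGF5, NANOG, POU5F1 and SOX2. Others were named after their values were seen, and some genes are not reported here. Symbols came from the tables for 17451 rows and from a gene name table for 939. Coordinates are those of RefSeq on Sscrofa11.1, matched by symbol.

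Replicate numbers pair the Activin A and SB431542 libraries: deviations from the group means of same-numbered libraries, which the labels number 1 to 3 in each treatment, correlated across genes at 0.40, 0.59 and 0.53. Whether limma's test would recover differences as small as those of the enzymes was not tested. Alternatives were other pseudocounts, filters and scalings, no variance trend, a replicate block, all libraries in 1 fit, and each library left out.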

Additional observations from a re-analysis of the deposited data

How the results depend on the processing

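Over 17 alternatives the log2 fold changes of UHRF1, TDG, DNMT1, TET1, DNMT3B, DNMT3A and TET2 between knock-in and WT kept their direction, although those of DNMT1, TET1, DNMT3B, DNMT3A and TET2 moved by over 1.5 times. The test passed 3 enzymes with all 12 libraries in 1 fit, which left out the pairing by replicate number. It passed 0 to 1 when single libraries were left out, and 0 otherwise. The share of all genes passing, 7.22%, was 3.34% without a filter, 2.57% with a replicate block, 18.6% with 12 libraries, and 1.13% (without knock-in line 1) to 10.4% (without WT replicate 3) when single libraries were left out. Same-numbered knock-in and WT libraries correlated at -0.018, 0.0087 and 0.094, so they share only a number. With that block, 360 genes passed in place of 1012, and 0 of the 17 replication and proliferation genes passed in place of 4. Scaling without mitochondrial genes, chosen after seeing the data, gave 548 higher and 424 lower genes in place of 684 and 328.

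For Activin A against SB431542, 0 enzymes passed in each alternative. The share of all genes passing, 0.136%, was 0.0571% with pseudocount 0.01, 0.0627% without a filter, 0.0443% with a filter of 1 FPKM, 0.0714% without the variance trend, 2.88% with the replicate block, 0.357% with 12 libraries, and 0 to 0.0362% when single libraries were left out. NANOG then kept its direction, but its adjusted p in limma reached 0.208.

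When single libraries were left out, the log2 fold change of TET3 ran from -0.0098 to 0.24 between knock-in and WT. Between the treatments it ran from -0.19 to 0.040 for TET3, from -0.021 to 0.055 for TET1, from -0.042 to 0.053 for MAEL and from -0.0048 to 0.082 for STK31. Of the values of single genes, 894 kept their direction and side of the threshold, 69 no longer passed, 19 newly passed and 7 changed sign, all 7 with a library left out (between the treatments Activin A replicate 2 for TET3, Activin A replicate 3 or SB431542 replicate 1 for TET1 and MAEL, and SB431542 replicate 1 for STK31).

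Total depth is unknown, WT libraries were the shallowest, and no counting error can be given.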
